A study of Homo sapiens with 519 samples.

Results

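Flavopiridol was one of 29 treatments given to SK-N-BE(2) cells for 24 h in the third of the 4 experiments of the series, and its 3 libraries were chosen by that label and compared with the 9 libraries of wells given DMSO alone. They are 3 of the 96 libraries of the third experiment and of 519 in the whole series. SK-N-BE(2) is an established human neuroblastoma line, labelled as MYCN amplified, so every group compared below carried the amplified MYCN gene. The flavopiridol dose is labelled as 3, in a unit that the labels do not give. Counts per gene were obtained by PLATE-seq, a pooled method that reads polyadenylated RNA from the wells of a plate. Further groups used here are JQ1 at 10 and palbociclib at 10 (3 libraries each, same experiment, 24 h) and, from the first experiment, dactinomycin at 0.25 (2 libraries, 24 h) with its own 8 DMSO libraries. The labels do not say that replicates came from separate cultures, so the p-values measure only the spread between wells.

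Flavopiridol is a flavone that competes with ATP in cyclin-dependent kinases, among them CDK9, the kinase of P-TEFb. P-TEFb phosphorylates RNA polymerase II and the factors that hold it near the start of genes, which lets the polymerase enter productive elongation. With elongation blocked, short-lived transcripts are lost first, and what remains is weighted towards long-lived messages and RNA made by other polymerases. A gene's value below is its share of the counted reads in a library, in CPM (counts per 1e6 counts of the library), so a gene can take a larger share while its amount of RNA falls. In wells of bulk RNA, fewer cells and less RNA per cell cannot be told apart.

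The flavopiridol wells gave less sequence, from fewer genes, with more of it in a few genes. The 3 totals were 794849, 729614 and 706208 counts, against 2775143 to 5263249 counts in the 9 DMSO wells. They were the 3 lowest totals of the 96 libraries, of which the next lowest held 1390121 counts. The geometric mean was 0.186 of that of DMSO (exact two-sided permutation test over 220 arrangements, p = 0.00909, the smallest p that 3 against 9 allows). One count is therefore worth 1.26, 1.37 and 1.42 CPM in the flavopiridol libraries. With every library thinned to 706208 counts, 12402 ± 95.3 genes (SD, n = 3) were detected with flavopiridol and 14521 ± 198 genes (SD, n = 9) with DMSO (exact permutation p = 0.00909). The 50 genes with the highest counts of each library took 47.3 ± 1.2% of counts with flavopiridol and 37.5 ± 0.829% with DMSO (exact permutation p = 0.00909). Without mitochondrially encoded genes these shares were 33.2% and 25.8%. The cell line's own markers were present in the DMSO wells (PHOX2A, GATA3, TH and MYCN, with values below). Of 16 markers of other cell types, 5 could be tested, 0 were higher and 2 were lower, and the list summed to 152 to 233 CPM with flavopiridol and 248 to 364 CPM with DMSO, most of it from COL1A1.

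**Figure D1:**
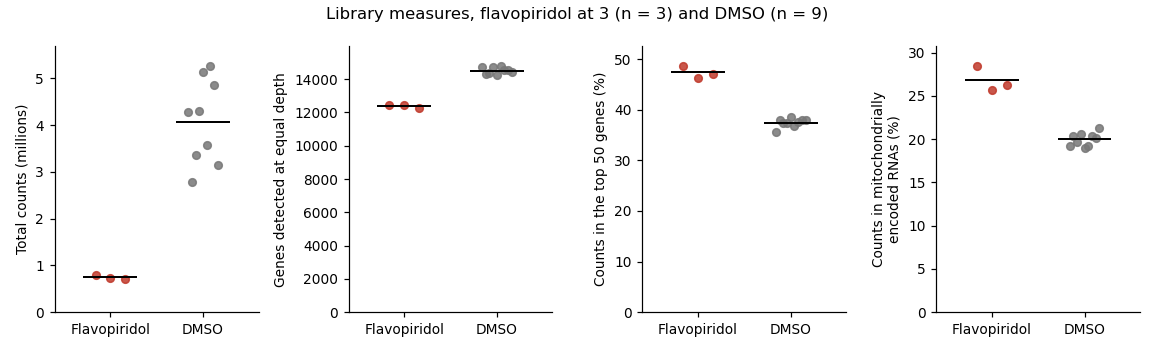
Measures of each library on linear axes that start at 0, with one point per library and a bar at the mean, for the 3 flavopiridol wells and the 9 DMSO wells. The flavopiridol wells lie below every DMSO well in total counts and in genes detected at equal depth, and above every DMSO well in the share of the 50 leading genes and of mitochondrially encoded RNA.

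Much of the measured transcriptome changed its share, and losses were about 4 times as frequent as gains. Of 15596 genes tested, 5112 (32.8%) passed an adjusted p of 0.05, 988 higher (6.33%) and 4124 lower (26.4%) with flavopiridol (edgeR quasi-likelihood test, Benjamini-Hochberg adjustment). The libraries of the groups did not overlap in 4178 genes (26.8%): in 3592 (23.0%) every flavopiridol library lay below every DMSO library, and in 586 (3.76%) every one lay above. The median gene was lower by 0.65 on the log2 scale, and the quartiles were -1.70 and 0.18. The choice of scaling sets this median and with it the balance of directions. Relative to total counts 19.3% of the changed genes were higher. Relative to nuclear totals 31.1% of genes changed, 25.4% of them higher (median -0.52). With TMM factors 28.9% changed (10.9% higher and 18.0% lower), so that 37.7% of the changes were gains (median -0.30). With median-of-ratios factors 28.4% changed, 49.9% of them higher (median -0.10), and with DESeq2 25.8% changed, 53.5% of them higher (median -0.06). Changes below are shares of total counts unless another scaling is named, and a gene near the median of -0.65 kept pace with the typical gene. Calls were more frequent among abundant genes. Of 3617 protein-coding genes of at least 30 CPM in DMSO, 1851 were lower and 368 higher. The shares of all genes given beside the lists below are therefore a low mark for lists of abundant genes. Anything below 1 count is not visible at this depth, and 399 of the genes called lower had no count in any flavopiridol library. Single libraries carried part of the gains, since 476 of the higher calls overlapped DMSO and 54 had over 90% of their flavopiridol signal in one library. One such gene was ASB8, with 3204, 6.85 and 8.496 CPM with flavopiridol and a DMSO median of 21.1 CPM, whose change became -1.49 on the log2 scale without the first library.

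**Figure D2:**
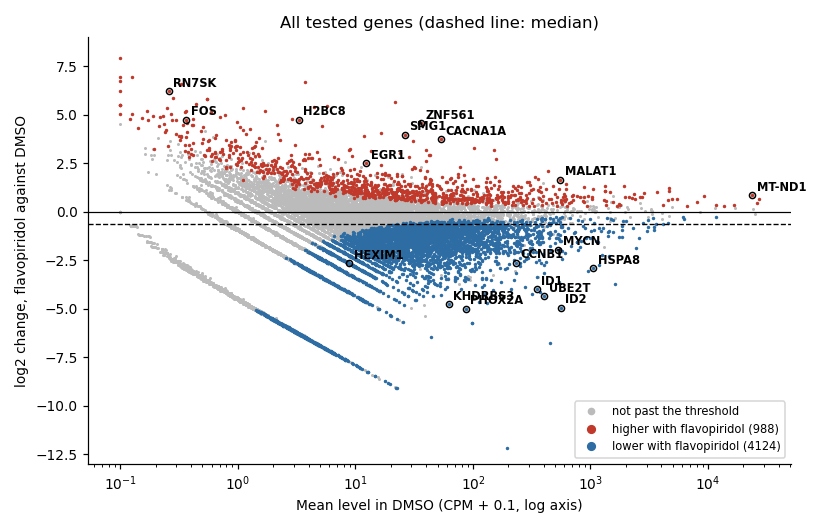
Log2 change of each tested gene between flavopiridol and DMSO against its mean level in DMSO (CPM + 0.1, log axis), with genes past the threshold in colour and the median of all genes as a dashed line. The cloud is centred below 0, at -0.65, and 4124 genes lie among the lower calls against 988 among the higher ones.

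The largest gains fell on a mixed group of genes, 4 of the 12 named being zinc finger genes. ZNF561 had 1248, 684 and 622 CPM with flavopiridol, against 23.8 to 46.3 CPM (median 35.7) with DMSO, a log2 change of 4.57 ± 0.16 (SE, adjusted p = 1e-37, edgeR). ZNF347 had 292, 114 and 136 CPM with flavopiridol, against 3.96 to 17.1 CPM (median 11.2) with DMSO, a change of 3.93 ± 0.40. No flavopiridol library of either gene came near a DMSO library. ZNF799 and ZNF225 rose by 4.45 ± 0.54 and 4.02 ± 0.49. These zinc finger genes do not speak for their class: of 422 ZNF genes tested, 19 were higher and 107 lower (25.4%, against 26.4% of all genes), with a median of -1.06, or -0.89 with genes at 0 set to their bound. SMG1, the kinase that starts nonsense-mediated decay, had 439, 471 and 326 CPM with flavopiridol, against 14.4 to 36.9 CPM (median 28.6) with DMSO (3.98 ± 0.34). SMG1 has near-identical partial copies in the genome, between which reads may have been split. CACNA1A, a neuronal calcium channel subunit, was uneven, with 1451, 118 and 542 CPM with flavopiridol, against 29.99 to 104 CPM (median 42.7) with DMSO (3.73 ± 0.57, or 2.63 without the first flavopiridol library). ULK2, an autophagy kinase, rose by 3.25 ± 0.60, the orphan nuclear receptor NR2C2 by 3.46 ± 0.50 and CLVS1, a clathrin-linked lipid-binding protein, by 4.41 ± 0.62. STRIT1, a small activator of the SERCA calcium pump, had 18.9, 282 and 450 CPM with flavopiridol, against 0 to 17.4 CPM with DMSO, so its lowest flavopiridol library stood just above the DMSO wells.

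At the other end, several transcripts all but left the libraries. CAP1, an actin-binding protein, had no count in any flavopiridol library, against 98.0 to 246 CPM (median 197) with DMSO, which makes it at least 139.8-fold lower when 3 counts over the group are taken as the floor. KHDRBS3, an RNA-binding splicing regulator, had 1.26, 4.11 and 1.42 CPM with flavopiridol, against 51.4 to 77.2 CPM (median 59.1) with DMSO (-4.76 ± 0.44, adjusted p = 4.9e-15, edgeR). UBE2T, the ubiquitin-conjugating enzyme of the Fanconi pathway, had 3.77, 39.7 and 15.6 CPM with flavopiridol, against 331 to 506 CPM (median 401) with DMSO (-4.37 ± 0.25). The mitochondrial ribosomal protein MRPL9 fell by 4.65 on the log2 scale, the retinol dehydrogenase RDH14 fell by 4.35 and the U3 snoRNP protein IMP3 by 4.33. For the nucleolar protein NOP16 and the telomere protein TINF2 only 3 counts remained over the flavopiridol group, and the ratios to DMSO were 24.1-fold lower (95% counting interval 8.24 to 117) and 24.2-fold lower (8.26 to 117). GSTM1 and GSTM2, near-identical glutathione transferases whose reads can be exchanged, moved oppositely: GSTM1 had 106, 68.5 and 65.1 CPM with flavopiridol and a DMSO median of 0 CPM, and GSTM2 had 1 count in all with flavopiridol and a DMSO median of 46.1 CPM.

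Some messages of the machinery that flavopiridol acts on fell, among them those of RNA polymerase II and of cyclin H. Of 30 genes for P-TEFb, its 7SK regulators and elongation factors, 13 fell (43.3%, against 26.4% of all genes) and 2 rose (6.67%, against 6.33%). The list's median of -0.75 was near the -0.65 of all genes. With TMM factors 9 fell and 4 rose, with median-of-ratios factors 7 and 6 (median -0.21), and in DESeq2 6 and 6. CDK9 itself was near the detection limit, with 1.26, 6.85 and 5.66 CPM with flavopiridol, against 1.19 to 5.35 CPM (median 1.90) with DMSO, a difference of 0.70 ± 0.53 that missed the threshold (adjusted p = 0.32, edgeR). HEXIM1, the protein that holds P-TEFb inactive on 7SK RNA, had 0, 4.11 and 0 CPM with flavopiridol, against 5.16 to 12.8 CPM (median 9.26) with DMSO (adjusted p = 0.00016, edgeR). Its 3 counts give a ratio 6.53-fold lower, with a counting interval of 2.21 to 31.8, and in DESeq2 its adjusted p was 0.0501. MEPCE, which caps 7SK, kept 1 count, 23.4-fold lower (4.17 to 925), and LARP7, which binds the 3′ end of 7SK, fell by 1.38 on the log2 scale. The cyclin partners CCNT1 and CCNT2 fell by 1.18 and 1.50, although the change in CCNT1 did not pass with median-of-ratios factors (adjusted p = 0.147, edgeR), in DESeq2 (0.176) or without the second flavopiridol library (0.0570). CCNH, the cyclin of the polymerase kinase CDK7, had 7.55, 10.96 and 5.66 CPM with flavopiridol, against 64.8 to 119 CPM (median 85.4) with DMSO (-3.44 ± 0.25). POLR2A, the catalytic subunit of RNA polymerase II, had 7.55, 23.3 and 14.2 CPM with flavopiridol, against 42.5 to 79.1 CPM (median 66.2) with DMSO (-2.10 ± 0.23). All flavopiridol libraries lay below all DMSO libraries for both. The pausing factor NELFA fell by 1.43, but did not pass in DESeq2 (-0.89, adjusted p = 0.0865). SUPT5H, the large subunit of the pausing factor DSIF, passed the test upwards (1.47 ± 0.43), but its 61.6, 12.3 and 4.25 CPM with flavopiridol overlapped the 4.79 to 15.6 CPM with DMSO, and the change was -0.19 without the first library.

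RN7SK, the RNA polymerase III transcript that carries this complex, moved the other way from its protein partners. It had 10.1, 20.6 and 9.91 CPM with flavopiridol, against 0 to 0.721 CPM (median 0) with DMSO, from 30 counts over 3 libraries against 5 counts over 9 (6.20 ± 1.00, adjusted p = 6.4e-07, edgeR). It is not normally polyadenylated, and the level seen here is what a polyA method recovered. The first 100 of its 328 bases are shown because its 5′ hairpin is where HEXIM1 binds; capitals mark GATC, the motif searched, which reads the same on both strands (GENCODE v29, GRCh38, chr6:52995621-52995720, plus strand).
RN7SK: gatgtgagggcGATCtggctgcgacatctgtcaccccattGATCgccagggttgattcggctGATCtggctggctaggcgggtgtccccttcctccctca
GATC occurred 3 times in this window, and 26 of 15447 representative transcripts of tested genes (0.168%) held at least as many in their first 100 bases. Of the 18 RNAs in the list of Pol III and other short RNA, 2 could be tested. BCYRN1, tested beside RN7SK, averaged 26.1 CPM with flavopiridol and 21.8 CPM with DMSO. It did not pass the test (0.27 ± 0.33, adjusted p = 0.57, edgeR). Among other short RNAs, RPPH1, the RNA of RNase P, was too rare to test, with 10.1, 0 and 4.25 CPM with flavopiridol and 0 in all DMSO libraries. RN7SL1, the RNA of the signal recognition particle, had 1 count with flavopiridol and 35 counts with DMSO, and was not tested either.

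**Figure D3:**
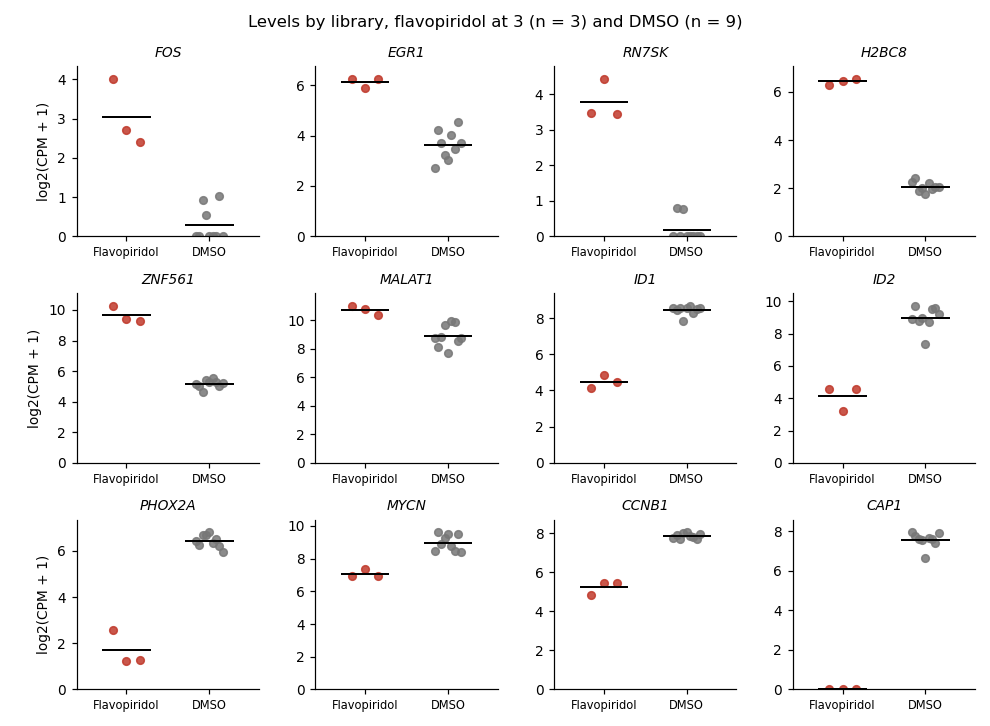
Level of 12 genes in each library, as log2(CPM + 1) on linear axes that start at 0, for the 3 flavopiridol wells and the 9 DMSO wells, with a bar at the mean. FOS, EGR1, RN7SK, H2BC8, ZNF561 and MALAT1 lie higher with flavopiridol, and ID1, ID2, PHOX2A, MYCN, CCNB1 and CAP1 lie lower, with no overlap between the groups in any panel.

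Immediate early genes, the first to respond to growth factor signals and among the least stable messages, split into gains and losses. Of 23 tested, 3 rose (13.0%, against 6.33% of all genes) and 8 fell (34.8%, against 26.4%), with a median of -0.68, and with TMM factors 5 rose and 5 fell. FOS, a subunit of the AP-1 factor, had 15.1, 5.48 and 4.25 CPM with flavopiridol, against 0 to 1.03 CPM (median 0) with DMSO, from 19 and 10 counts (4.75 ± 0.84, adjusted p = 3.2e-06, edgeR). EGR1, a zinc finger factor induced by the ERK pathway, had 74.2, 58.9 and 75.05 CPM with flavopiridol, against 5.60 to 22.5 CPM (median 11.9) with DMSO (2.50 ± 0.32, adjusted p = 1.1e-09, edgeR). Both stood above every DMSO library. MYC had 3.77, 4.11 and 2.83 CPM with flavopiridol, against 0 to 1.63 CPM with DMSO, and its adjusted p of 0.04 (edgeR) rose above the threshold when any one flavopiridol library, or DMSO replicate 1, 3, 5 or 6, was left out. JUN had 37.7, 64.4 and 38.2 CPM with flavopiridol and 27.2 to 62.8 CPM with DMSO and did not pass the test (0.34 ± 0.28), although it passed upwards with median-of-ratios factors (0.88), while JUNB fell by 1.65. SRF, the factor that drives FOS and EGR1, kept 3 counts, 10.6-fold lower (counting interval 3.61 to 51.6).

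The 3 ID genes on the same list all fell by more than 3 on the log2 scale. ID proteins bind E-protein partners of bHLH factors and hold cells back from differentiation. ID1 had 16.4, 27.4 and 21.2 CPM with flavopiridol, against 227 to 412 CPM (median 368) with DMSO (-4.01 ± 0.28, adjusted p = 1.6e-20, edgeR). ID2 had 22.6, 8.22 and 22.7 CPM with flavopiridol, against 163 to 857 CPM (median 492) with DMSO (-4.96 ± 0.56). ID3 had 11.3, 27.4 and 2.83 CPM with flavopiridol, against 83.9 to 148 CPM (median 121) with DMSO (-3.09 ± 0.25). For all 3 ID genes the flavopiridol mean was the lowest of the 30 groups of the third experiment.

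Many transcription factors of the adrenergic neuroblastoma state fell while the messages of several neuronal proteins held or gained their share. The adrenergic factors form an interlocking circuit that sets the identity of sympathetic neuroblasts. Of 25 tested, 15 fell (60%, against 26.4% of all genes) and 1 rose, and with TMM factors 9 fell and 2 rose. Their median of -0.72 was near the -0.65 of all genes. Among protein-coding genes of at least 30 CPM in DMSO, 1851 of 3617 fell. PHOX2A, a homeobox factor of noradrenergic neurons, had 5.03, 1.37 and 1.42 CPM with flavopiridol, against 61.3 to 111 CPM (median 83.8) with DMSO (-4.99 ± 0.38, adjusted p = 2e-18, edgeR). MYCN had 121, 164 and 122 CPM with flavopiridol, against 332 to 782 CPM (median 468) with DMSO (-1.96 ± 0.41, adjusted p = 7.3e-05, edgeR), with no overlap. GATA3, a factor of sympathetic neurons, had 41.5, 50.7 and 36.8 CPM with flavopiridol, against 160 to 265 CPM (median 198) with DMSO (-2.21 ± 0.17). The homeobox factor TLX2 fell by 1.34.

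Of 22 catecholamine and neuronal genes tested, 3 rose (13.6%, against 6.33% of all genes) and 5 fell (22.7%, against 26.4%). Their median was -0.18, and with TMM factors 7 rose and 4 fell. TH, the first enzyme of catecholamine synthesis, had 69.2, 49.3 and 99.1 CPM with flavopiridol, against 21.5 to 42.8 CPM (median 26.6) with DMSO (1.33 ± 0.29, adjusted p = 0.00016, edgeR). DDC, the next enzyme of that pathway, went against it, with 37.7, 46.6 and 45.3 CPM with flavopiridol and 78.8 to 114 CPM (median 90.7) with DMSO (-1.11 ± 0.18). The neuronal reticulon RTN1 rose by 0.95 and the ubiquitin hydrolase UCHL1 by 0.54, and the neuronal tubulin TUBB3 fell by 1.03. The growth cone protein GAP43 had 1097, 1177 and 1089 CPM with flavopiridol, against 799 to 1281 CPM with DMSO (0.11 ± 0.13, adjusted p = 0.56, edgeR). With TMM factors GAP43 and the tubulin-binding protein STMN2 passed the test upwards, at 0.46 and 0.69.

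**Figure D4:**
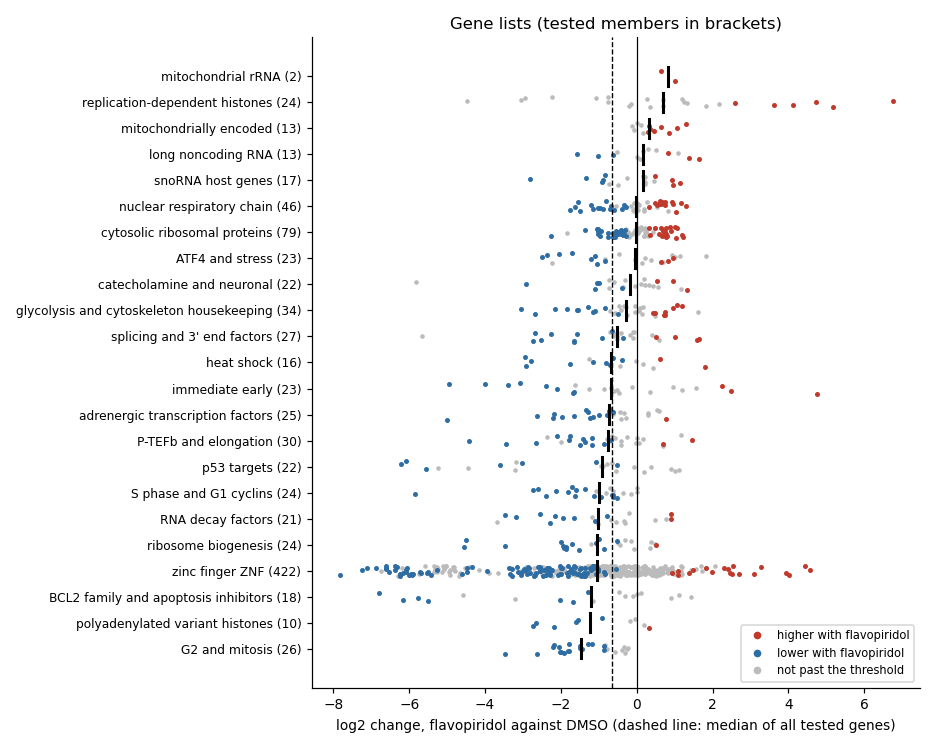
Log2 change of each tested member of the gene lists, one point per gene and a black bar at the list's median, with the number tested in brackets and the median of all genes as a dashed line. The list medians run from -1.47 for G2 and mitosis to 0.83 for the mitochondrial rRNAs.

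Cell cycle messages were lower with total counts as the scale, and how many passed the test depended on the scaling. Of 26 G2 and mitosis genes, 18 fell (69.2%, against 26.4% of all genes) and 0 rose, with a median of -1.47. With TMM factors 17 of them fell, with median-of-ratios factors 14 and in DESeq2 12, and 0 rose in each. CCNB1, the mitotic cyclin, had 27.7, 42.5 and 42.5 CPM with flavopiridol, against 207 to 263 CPM (median 229) with DMSO (-2.62 ± 0.23, adjusted p = 9.4e-16, edgeR). CCNB2 had 12.6, 10.96 and 8.496 CPM with flavopiridol, against 102 to 139 CPM (median 121) with DMSO (-3.48 ± 0.23). CDK1, the kinase that both activate, fell by 1.91 with 34.0, 37.0 and 39.7 CPM with flavopiridol and 127 to 156 CPM with DMSO. Of 24 S phase and G1 genes, 16 fell (66.7%) and 0 rose, with a median of -1.01, or -0.87 with genes at 0 set to their bound. With TMM factors 10 of these fell and 1 rose, with median-of-ratios factors 8 and 1, and in DESeq2 6 and 1. The replication clamp PCNA had 15.1, 91.8 and 38.2 CPM with flavopiridol, against 221 to 310 CPM (median 248) with DMSO (-2.39 ± 0.24). The helicase subunit GINS2 fell by 2.60 and the flap endonuclease FEN1 by 2.75.

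Lists of genes for making and handling RNA and proteins had medians on both sides of the -0.65 of all genes. Of 24 ribosome biogenesis genes, 14 fell (58.3%, against 26.4% of all genes) and 1 rose (median -1.04), and with median-of-ratios factors 10 fell and 5 rose. Among those that fell were the methyltransferase FBL, at -1.85 ± 0.18, and the nucleolar protein NOP14, at -1.87 ± 0.20. Of 27 splicing and 3′ end factors, 10 fell (37.0%) and 4 rose (14.8%, against 6.33% of all genes), with a median of -0.53, and with median-of-ratios factors 7 fell and 8 rose. SRSF7 had 36.5, 43.9 and 60.9 CPM with flavopiridol, against 234 to 305 CPM (median 272) with DMSO (-2.53 ± 0.13, adjusted p = 1.6e-27, edgeR), whereas HNRNPK fell by 0.92, little more than the median gene. Of 21 RNA decay factors, 9 fell (42.9%) and 2 rose (median -1.01), and with median-of-ratios factors 6 fell and 4 rose. ZFP36L2, which directs AU-rich messages to decay, had 6.29, 9.59 and 8.496 CPM with flavopiridol, against 78.9 to 105 CPM (median 90.0) with DMSO (-3.49 ± 0.18), and its relative ZFP36L1 fell by 2.14. The exosome subunit EXOSC3 fell by 3.19. Of 16 heat shock genes, 9 fell (56.3%) and 2 rose, with a median of -0.67, close to that of all genes, and with median-of-ratios factors 5 fell and 5 rose. HSPA8, the constitutive chaperone, had 102, 148 and 170 CPM with flavopiridol, against 970 to 1221 CPM (median 1024) with DMSO (-2.91 ± 0.15), the lowest mean of the 30 groups, while the mitochondrial chaperone HSPD1 fell by 1.17. Of 23 genes of the ATF4 stress response, 8 fell (34.8%) and 3 rose (13.0%), with a median of -0.04, and with median-of-ratios factors 5 fell and 6 rose. The chaperone HSPA5 fell by 2.04 and the factor CEBPG by 2.49, and the serine synthesis enzyme PHGDH rose by 0.83 ± 0.10.

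Changes among apoptosis genes rest on few counts. Of 18 genes of the BCL2 family and apoptosis inhibitors, 7 fell (38.9%, against 26.4% of all genes) and 0 rose, with a median of -1.21, or -0.66 with its 3 genes at 0 set to their bound. With TMM factors 4 fell and 1 rose, with median-of-ratios factors 3 and 2, and in DESeq2 1 and 2. MCL1, a short-lived survival protein, had 3.77, 1.37 and 7.08 CPM with flavopiridol, against 8.17 to 17.9 CPM (median 12.4) with DMSO (-1.67 ± 0.47, adjusted p = 0.0031, edgeR). The groups did not overlap and the flavopiridol mean was the lowest of the 30 groups, but with median-of-ratios factors the change was -1.12 (adjusted p = 0.0658, edgeR), and the call was lost too in DESeq2 (0.120) and without the second flavopiridol library (0.0595). BCL2L2 had no count with flavopiridol, at least 2.17-fold lower, and its call was lost in DESeq2 (adjusted p = 0.0702) and without any one flavopiridol library. BCL2L11, which promotes apoptosis, overlapped DMSO with 1.26, 0 and 12.7 CPM with flavopiridol, against 8.91 to 28.04 CPM (-2.02 ± 0.56), and its call was lost without the first or the second flavopiridol library. The call of BIRC3, at -6.79 ± 2.27, came from 1 DMSO well with 4047 CPM, since the DMSO median was 3.61 CPM and the change was 0.47 without that well. Of 22 p53 target genes, 7 fell (31.8%, near the 26.4% of all genes) and 0 rose (median -0.93, or -0.72 with bounds), with TMM factors 5 fell and 1 rose, and in DESeq2 2 and 1. TIGAR, a regulator of glycolysis, fell by 3.04, PLK2 kept 2 counts, 12.7-fold lower (counting interval 3.51 to 106), and TP53INP1 had none, at least 2.01-fold lower, a call that was lost in DESeq2 (adjusted p = 0.0660).

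Mitochondrially encoded RNA, which a separate polymerase makes, took a larger share of the wells. Of its 13 messages, 8 rose (61.5%, against 6.33% of all genes) and 0 fell (median 0.33), and both mitochondrial rRNAs rose (median 0.83). The 13 messages took 22.95, 20.7 and 20.9% of counts with flavopiridol, against 16.03 to 17.7% with DMSO. All mitochondrially encoded RNA together took 28.5, 25.6 and 26.2% with flavopiridol, against 19.0 to 21.3% with DMSO, the highest share of the 30 groups. MT-ND1, a subunit of complex I, had 40742, 44403 and 42087 CPM with flavopiridol, against 22020 to 25294 CPM (median 23815) with DMSO (0.84 ± 0.08, adjusted p = 1.3e-14, edgeR). MT-CO1, a subunit of cytochrome oxidase, rose by 0.65 ± 0.11. MT-CYB, of complex III, had 9862, 8137 and 7924 CPM with flavopiridol, against 7848 to 9145 CPM (median 8721) with DMSO, a change of 0.01 ± 0.08 that became 0.37 and passed the test with TMM factors.

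Ribosomal protein messages as a class kept their share while single members parted. The class took 18.3, 19.7 and 18.9% of counts with flavopiridol, against 17.04 to 19.8% with DMSO. Of 79 genes tested, 20 rose (25.3%, against 6.33% of all genes) and 27 fell (34.2%), with a median of -0.02, and with TMM factors 40 rose and 12 fell. RPLP1, of the ribosomal stalk, had 3123, 2604 and 3206 CPM with flavopiridol, against 1197 to 1714 CPM (median 1507) with DMSO (1.02 ± 0.10, adjusted p = 8.2e-14, edgeR). RPS14, of the small subunit, had 398, 260 and 234 CPM with flavopiridol, against 1108 to 1898 CPM (median 1371) with DMSO (-2.26 ± 0.20). Ribosomal protein genes have many processed copies, between which reads may be split. RPL13 had 3602, 4287 and 3822 CPM with flavopiridol, against 3620 to 4720 CPM (median 4019) with DMSO (-0.07 ± 0.08), and its sign turned with TMM factors (0.28).

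Nuclear genes of the respiratory chain parted in the same manner, with a median of -0.01. Of 46 tested, 14 rose (30.4%, against 6.33% of all genes) and 16 fell (34.8%, against 26.4%). With TMM factors 21 rose and 11 fell. UQCR11, of complex III, had 1135, 1207 and 1232 CPM with flavopiridol, against 384 to 556 CPM (median 474) with DMSO (1.31 ± 0.12), and COX8A, of cytochrome oxidase, rose by 1.16 ± 0.12. NDUFB4, of complex I, fell by 1.75. Of 34 glycolysis and cytoskeleton genes, 8 rose (23.5%) and 11 fell (32.4%), with a median of -0.27, and with TMM factors 13 rose and 9 fell. The iron store FTH1 had 2767, 2886 and 2717 CPM with flavopiridol, against 1171 to 1600 CPM (median 1336) with DMSO (1.07 ± 0.09). Among cytoskeletal proteins, ACTB had 3063, 3602 and 3598 CPM with flavopiridol, against 2780 to 3815 CPM (median 3141) with DMSO (0.06 ± 0.11, or 0.41 and past the threshold with TMM factors), while its near-twin ACTG1 fell by 1.57 and the tubulin TUBB by 1.85. A kept share was defined, after the values were seen, as a 95% interval of the change within 1.5-fold either way. It held for 449 of 15596 genes (2.88%) and, among genes of at least 30 CPM in DMSO, for 377 of 3773 (9.99%). It held for 29 of the 79 ribosomal protein genes and 8 of the 13 mitochondrial messages, and the 3 narrowest intervals were those of RPL37, RPL13 and MT-CYB. A kept share did not exclude a call. RPL37 was called higher without overlap, at 0.31 with an interval of 0.18 to 0.45. The definition is for shares of total counts, and with TMM factors RPL37 stood at 0.67.

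A few replication-dependent histone genes rose, H2BC8 among them, and most of those tested did not pass the test. Replication-dependent histone messages end in a conserved stem-loop in place of a polyA tail and are scarce in polyA libraries. Of 65 such genes 24 could be tested, of which 6 rose (25%, against 6.33% of all genes), 0 fell and 18 were not called (median 0.70). A gene could pass the filter on low counts through the flavopiridol wells alone, so the count describes these genes and not the class. The class summed to 170, 200 and 187 CPM with flavopiridol, against 34.2 to 302 CPM (median 48.7) with DMSO, so the highest DMSO well lay above the flavopiridol wells. That well, DMSO replicate 3.1, was also the one with 4047 CPM of BIRC3. The next highest DMSO well summed to 81.6 CPM. H2BC8 had 78.0, 87.7 and 92.0 CPM with flavopiridol, against 2.34 to 4.32 CPM (median 3.095) with DMSO (4.73 ± 0.43, adjusted p = 2.5e-15, edgeR), and no other group of the third experiment averaged above 13.9 CPM. H1-4 had 13.8, 6.85 and 12.7 CPM with flavopiridol, against 0 to 0.594 CPM with DMSO (5.18 ± 0.96). H3C13 had 7.55, 4.11 and 1.42 CPM with flavopiridol and none with DMSO, at least 54.8-fold higher. The calls of H2AC8, H2BC11 and H2BC21 rest on few counts and each was lost without 1 flavopiridol library; that of H2BC21 was 0.48 without the second. The rise of the class was not particular to flavopiridol. With JQ1, 8 of the 24 were higher and 0 lower against DMSO (median 0.89), where 810 of all 15596 genes were higher. The class summed to 140, 139 and 123 CPM with JQ1. Compared directly, 3 were higher with flavopiridol than with JQ1 (12.5%, against 7.36% of all genes) and 1 lower. The median of that comparison was -0.63, against -0.61 for all genes. Histone genes of one type are nearly identical in their coding part, which leaves their assignment uncertain.

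The stem-loop, shown because it sets these messages apart, was found by its letters in 16 of 23 tested histone genes with an annotated match, and in 3 of the 6 that rose. Capitals mark both arms of the stem and the loop, in the sense of the transcript (GRCh38, GENCODE v29), for H2BC8 at chr6:26216212-26216239 on the minus strand, H2AC8 at chr6:26217411-26217438 on the plus strand and H2BC21 at chr1:149886182-149886209 on the minus strand.
H2BC8: ctcaaaGGCTCTTTTCAGAGCCactcaa
H2AC8: accaaaGGCTCTTTTCAGAGCCacccac
H2BC21: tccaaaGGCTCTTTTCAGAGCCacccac
The capital letters are the same in all 3. The search, on the transcript strand alone and for GG with 3 pyrimidines, TT, 3 bases other than G, A, 3 purines and CC, matched 15 of 12668 other tested genes with a 3′ UTR (0.118%). It covered all annotated transcripts of a histone gene past the coding end, but only the representative transcript of each other gene. A histone gene whose annotated transcripts end early would be counted as lacking the stem-loop. Of 10 variant histone genes with polyadenylated messages, 6 fell (60%, against 26.4% of all genes) and 1 rose (median -1.23), but with TMM factors 3 fell and 2 rose, and with median-of-ratios factors and in DESeq2 3 fell and 3 rose. H2AZ1, the replacement histone at gene starts, had 147, 215 and 169 CPM with flavopiridol, against 1018 to 1402 CPM (median 1165) with DMSO (-2.75 ± 0.16), H3-3B fell by 2.19 and H2AX by 2.65.

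Long noncoding RNAs were mixed, with a median of 0.17. Of 13 tested, 3 rose (23.1%, against 6.33% of all genes) and 3 fell (23.1%, against 26.4%). With TMM factors 5 rose and 2 fell. MALAT1, a stable nuclear RNA of splicing speckles, had 2117, 1756 and 1323 CPM with flavopiridol, against 212 to 1018 CPM (median 446) with DMSO (1.64 ± 0.51, adjusted p = 0.0088, edgeR). That call was lost without the first flavopiridol library (adjusted p = 0.0573, edgeR). The imprinted RNA MEG3 had 316, 433 and 440 CPM with flavopiridol, against 114 to 250 CPM (median 138) with DMSO (1.38 ± 0.22), and H19, also imprinted, fell by 1.58. OIP5-AS1 rose by 0.83, with an overlap of the groups, and NEAT1, the scaffold of paraspeckles, did not pass the test (0.08 ± 0.23), although it passed upwards with median-of-ratios factors (0.64). The spliced transcripts of many snoRNA host genes are turned over by nonsense-mediated decay. Of 17 such genes tested, 4 rose (23.5%) and 5 fell (29.4%, near the 26.4% of all genes), with a median of 0.16. With TMM factors 8 of them rose and 3 fell. SNHG15 had 6.29, 9.59 and 7.08 CPM with flavopiridol, against 46.6 to 74.8 CPM (median 50.9) with DMSO (-2.82 ± 0.22). SNHG6 rose by 1.14 and SNHG16 fell by 1.35. ZFAS1 rose by 0.47, a call that was lost without the third flavopiridol library (adjusted p = 0.112, edgeR). GAS5 (0.23) and SNHG5 (0.21) did not pass the test, but passed upwards with TMM factors (0.58 and 0.56), with median-of-ratios factors and in DESeq2.

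Structure of the gene went with the change only weakly. Among 12821 protein-coding genes, the median change was -1.04 for genes of 1 exon, -1.25 for 2, -0.87 for 3 to 4, -0.71 for 5 to 8, -0.61 for 9 to 16 and -0.50 for more. Among the 3617 of at least 30 CPM in DMSO the same classes had -0.77, -1.12, -0.72, -0.68, -0.74 and -0.57, so that the order largely went. Spearman's rho over these genes, which share the libraries, was 0.111 for the number of exons (0.0405 among those of at least 30 CPM) and -0.0015 for the span of the gene. Genes in the fifth with the lowest GC in the 3′ UTR had a median of -0.79, and those in the fifth with the highest had -0.45 (rho 0.0821). Among those of at least 30 CPM these medians were -0.84 and -0.43 (rho 0.139). The 362 protein-coding genes with a kept share and at least 30 CPM had a median span of 21276 bases, against 30034 bases over all 3617 of that level. A shorter span was not particular to them: over all levels, genes called higher without overlap had a median of 16731 bases, and those called lower 27906 bases, against 34564 bases over all tested protein-coding genes. These sets also differed in level. The median in DMSO was 124 CPM for the genes with a kept share and 67.9 CPM over the 3617. It was 45.8 CPM for the genes called higher, 31.0 CPM for those called lower and 12.4 CPM over all. Span and level were not separated.

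JQ1 and palbociclib, drugs that touch neighbouring steps, were measured in the same experiment and give a scale for these changes. JQ1 displaces BET proteins, which bring P-TEFb to chromatin, and palbociclib inhibits the G1 kinases CDK4 and CDK6. Against JQ1, 4867 genes (31.2%) differed, 1148 higher (7.36%) and 3719 lower (23.8%) with flavopiridol, and against palbociclib 4182 (26.8%), 744 higher (4.77%) and 3438 lower (22.0%). These counts depended on the processing. With only the compared groups fitted, 2377 genes differed from JQ1 and 1820 from palbociclib. With median-of-ratios factors 2005 were higher and 2146 lower than with JQ1, and 1596 higher and 1878 lower than with palbociclib. The doses were not matched and each drug's own comparison uses the same DMSO wells, in which JQ1 changed 2270 genes (14.6%) and palbociclib 1017 (6.52%). The median changes against DMSO were -0.65 with flavopiridol, -0.03 with JQ1 and -0.03 with palbociclib.

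HEXIM1 and POLR2A were low with flavopiridol and high with JQ1, and G2 and mitosis genes were lower with flavopiridol than with JQ1. HEXIM1 had 0, 4.11 and 0 CPM with flavopiridol and 39.5, 31.4 and 40.0 CPM with JQ1, against 5.16 to 12.8 CPM with DMSO, so that the drugs lay on opposite sides of DMSO and held the lowest and the highest mean of the 30 groups. POLR2A differed by -2.96 ± 0.25 between flavopiridol and JQ1 (adjusted p = 2.9e-16, edgeR), with 138, 98.4 and 112 CPM with JQ1. GATA3 differed by -2.99 ± 0.19 and H3-3B by -3.38 ± 0.18, in both cases with JQ1 above DMSO. Of the 26 G2 and mitosis genes 19 were lower (73.1%, against 23.8% of all genes) and 0 higher with flavopiridol than with JQ1, with a median of -1.51 against -0.61 for all genes. Of the 10 variant histone genes 7 were lower and 0 higher (median -1.76), of 23 immediate early genes 12 were lower and 3 higher (-1.20), and of 21 RNA decay factors 11 were lower and 1 higher (-1.35). In the P-TEFb list 12 of 30 were lower (40%) and 2 higher (6.67%, against 7.36% of all genes), with a median of -0.96. DDC went the other way, with 37.7, 46.6 and 45.3 CPM with flavopiridol, against 13.6, 13.7 and 10.0 CPM with JQ1 (1.79 ± 0.22). Of the 22 catecholamine and neuronal genes 9 were higher (40.9%) and 4 lower with flavopiridol than with JQ1. H19 differed by -0.14 ± 0.30 and MYCN by -0.96 ± 0.45 (adjusted p = 0.76 and 0.095, edgeR), which did not pass the test.

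Against palbociclib, genes of the ATF4 stress response and of ribosome biogenesis were lower with flavopiridol, and some S phase genes were higher. Of the 23 ATF4 genes 14 were lower (60.9%, against 22.0% of all genes) and 0 higher with flavopiridol than with palbociclib, with a median of -1.28 against -0.59 for all genes. Palbociclib itself had 13 of them higher and 0 lower against DMSO. Of 24 ribosome biogenesis genes 13 were lower and 0 higher (median -0.82), and of 17 snoRNA host genes 9 were lower and 1 higher (median -0.71). CDK1 had 34.0, 37.0 and 39.7 CPM with flavopiridol, against 26.2, 43.4 and 29.96 CPM with palbociclib (0.16 ± 0.18, adjusted p = 0.57, edgeR), an interval of -0.20 to 0.53. PCNA differed by 0.11 ± 0.27, which did not pass either. Against DMSO, palbociclib itself had 18 of the 24 S phase and G1 genes lower and 0 higher (median -1.78). It also had 20 of the 26 G2 and mitosis genes lower and 0 higher (median -1.50). Over all genes it had 591 of 15596 lower. Of the 24 S phase and G1 genes 9 were higher (37.5%, against 4.77% of all genes) and 0 lower with flavopiridol than with palbociclib, and of the 26 G2 and mitosis genes 4 were higher (15.4%) and 3 lower. CCNB1 was among the lower, at -1.21 ± 0.25 (adjusted p = 8e-05, edgeR), with 75.6, 102 and 82.4 CPM with palbociclib.

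**Figure D5:**
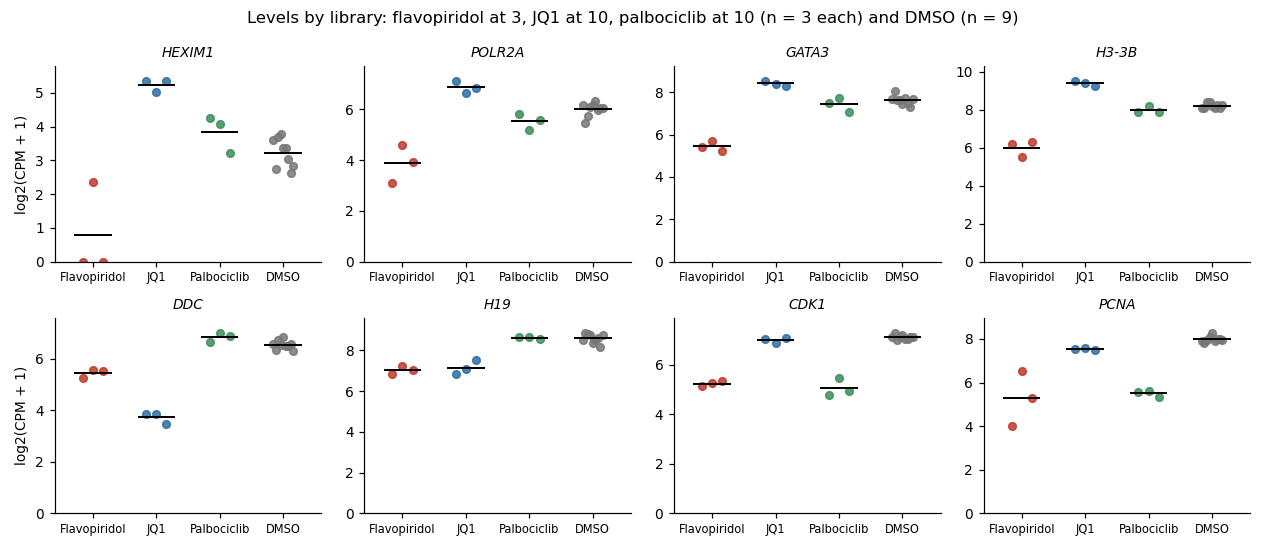
Level of 8 genes in each library, as log2(CPM + 1) on linear axes that start at 0, with flavopiridol, JQ1 and palbociclib (3 wells each) and DMSO (9 wells), and a bar at each mean. HEXIM1, POLR2A, GATA3 and H3-3B are low with flavopiridol and high with JQ1, DDC is lowest with JQ1, H19 is low with both, and CDK1 and PCNA are low with flavopiridol and palbociclib.

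Dactinomycin, which blocks transcription by binding DNA, was measured in the first experiment with its own DMSO wells, so its values stand beside those of flavopiridol with no control in common and no test between them. Its 2 libraries held 398391 and 263266 counts, against 1683983 to 2607422 counts in 8 DMSO libraries. It changed 3272 of 14894 genes (22.0%), 677 higher (4.55%) and 2595 lower (17.4%), with a median of -1.13. Of 11524 genes tested in both experiments, 3667 (31.8%) were lower with flavopiridol and 2478 (21.5%) with dactinomycin. Of these 1366 were lower with both drugs, which is 37.3% of those lower with flavopiridol and 55.1% of those lower with dactinomycin. Another 141 were higher with both, 18.8% of those higher with flavopiridol and 29.3% of those higher with dactinomycin (6.53% of the 11524 were higher with flavopiridol and 4.17% with dactinomycin), and 146 had opposite calls. Pearson's r of the changes was 0.145 across all 11524 genes and 0.40 across the 2770 of at least 30 CPM in both sets of DMSO wells, a description over genes that share libraries.

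The G2 and mitosis list fell with dactinomycin too, with 19 of 26 lower (against 17.4% of all genes) and 1 higher (against 4.55%). Its median was -1.76, against -1.13 for all genes. CCNB1 had 35.1 and 15.2 CPM with dactinomycin, against 78.7 to 177 CPM (median 122) with its DMSO. Of the 25 adrenergic factors 14 were lower (against 17.4% of all genes) and 0 higher, with a median of -1.57. GATA3 had 22.6 and 22.8 CPM with dactinomycin, against 63.2 to 123 CPM (median 90.7) with its DMSO. RPLP1 rose by 1.01 ± 0.21 and FTH1 by 1.58 ± 0.31, and both had risen with flavopiridol. Ribosomal protein genes gained with dactinomycin, 43 of 78 higher (against 4.55% of all genes) and 0 lower (median 0.66), where flavopiridol left a median of -0.02. The 13 mitochondrially encoded messages took a smaller share, 16.7 and 16.4% of counts with dactinomycin, against 19.2 to 24.2% with its DMSO. Of these messages 2 were higher (against 4.55% of all genes) and 3 lower (against 17.4%), with a median of -0.32. Both mitochondrial rRNAs rose with dactinomycin too (median 1.95). Other members also parted from flavopiridol. ID1 had 364 and 72.2 CPM with dactinomycin and a DMSO median of 178 CPM (0.00 ± 0.32). NOP16 had 42.7 and 41.8 CPM with dactinomycin, against 4.99 to 21.9 CPM with DMSO (1.80 ± 0.45, adjusted p = 0.0012, edgeR). ZNF561 had 12.6 and 7.60 CPM with dactinomycin, against 18.4 to 38.7 CPM with DMSO (-1.52 ± 0.57, adjusted p = 0.041, edgeR). POLR2A changed by -0.01 ± 0.28, which did not pass the test.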

How the data were processed

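The authors deposited counts per gene, one table per experiment, made with PLATE-seq from polyadenylated RNA per the labels' protocols. The submitters' processing notes name STAR and GRCh38, and the counter, the annotation and whether strand was used are not given in the sources used here. Counts were used as deposited, and no molecular identifiers are described, so intervals and floors cover counting error only. CPM is a count divided by the library's total. edgeR 4.0.16 (R 4.3.3, limma 3.58.1) fitted all 96 libraries of the third experiment with total counts as library size, after a filter with a count minimum of 10, using quasi-likelihood tests (legacy deviances, robust) with Benjamini-Hochberg adjustment over all tested genes at 0.05. The test was also run on simulated counts in which few genes differed between flavopiridol and DMSO, equally in both directions. That setting is unlike these data, and its outcome is not reported here. The first experiment was fitted alone with its replicate label as a block, leaving out 1 library under 100000 counts. DESeq2 1.42.0, other scalings, other filters, thinning and left-out libraries were alternatives.

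Named genes were the 12 largest gains and 12 largest losses among called genes without overlap and of at least 30 CPM in a group, the 3 smallest p-values of each list with 3 or more calls, and FOS, EGR1, PHOX2A, CCNB1, MYCN, CDK9, HEXIM1 and MCL1. Some genes that this rule selects are not reported here. The members and lists were chosen with earlier results of these data known. Genes outside that rule were named after their values were seen: RN7SK, BCYRN1, RPPH1, RN7SL1, MALAT1, NEAT1, H2BC11, H2BC21, H2AC8, ACTB, MT-CYB, RPL13, RPL37, JUN, JUNB, SRF, MYC, TH, RTN1, GAP43, STMN2, BIRC3, CCNT1, CCNT2, LARP7, NELFA, SUPT5H, ZFAS1, GAS5, SNHG5, COL1A1 and ASB8. Chi-square per degree of freedom between pairs of flavopiridol libraries was 8.34 to 8.61, so none was counted as a duplicate. Gene structure came from GENCODE v29, which matched 15466 of 15596 tested genes.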

Additional observations from a re-analysis of the deposited data

Results flagged for a closer look

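Within the 9 DMSO wells of the third experiment, 14 of 119 measures examined (115 genes and 4 measures of the library) had 1 well set apart from the rest by more than Dixon's test allows at 95%, where chance gives about 1 in 20. In BIRC3 the change against DMSO turned to 0.47 on the log2 scale without that well. BIRC3 had 4047 CPM in 1 DMSO well, replicate 3.1, and a median of 3.61 CPM. In the same well the replication-dependent histone genes summed to 302 CPM, and the next highest DMSO well held 81.6 CPM. GSTM1 had 21.3 CPM in 1 DMSO well and a median of 0 CPM, and GSTM2 had 22.3 CPM in its lowest DMSO well and a median of 46.1 CPM. BCL2L2 had 8.91 CPM in 1 DMSO well, JUN 62.8 CPM, GAS5 429 CPM, MEG3 250.5 CPM, SNHG15 74.8 CPM, COX8A 695 CPM, TUBB3 567 CPM, ULK2 29.2 CPM, HSPA8 1221 CPM and H2AC8 0.594 CPM, each the highest of its 9 wells. SNHG6 had 20.1 CPM in its lowest DMSO well. The source of these single-well values was not tested.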

How the results depend on the processing

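Of the 115 genes examined, 89 kept their direction and their side of the threshold in each of the 21 alternatives that gave them a value. Of the 115, 99 had a value in all 21, since 100 had one after thinning, 110 with only the compared groups fitted and 112 in DESeq2. Against DMSO, leaving out 1 library gave 4215 to 5103 changed genes (845 to 980 higher, 3363 to 4133 lower). Whether the replicate numbers pair the wells could not be decided from so few pairs. Residual correlations were -0.0115 to 0.0746 for same-numbered wells and -0.0413 to 0.0481 for other numbers. With the replicate block 4830 genes changed. Thinning to equal depth gave 3354 changed and 594 higher. The number higher was 1700 with TMM, 2210 with RLE (median-of-ratios) factors and 2151 with DESeq2, and the number lower 2222 with RLE and 1873 with DESeq2. Against JQ1, 2377 genes differed with only the compared groups fitted (564 higher, 1813 lower) and 1894 after thinning (459 higher, 1435 lower); RLE gave 2005 higher and 2146 lower and DESeq2 2033 and 1909. Against palbociclib the compared groups alone gave 1820 (354 higher, 1466 lower) and thinning 1481 (307 higher, 1174 lower); TMM gave 1209 higher and 2260 lower, RLE 1596 and 1878, and DESeq2 1628 and 1573. Leaving out 1 library gave 4047 to 4324 genes against JQ1 and 3432 to 3758 against palbociclib. Bias-adjusted deviances gave 1768 genes for dactinomycin. Directions turned for RPL13 (0.28 with TMM, 0.48 with RLE, 0.060 with nuclear totals, 0.48 with DESeq2), for BIRC3 (-7.42 to 0.47 with 1 library left out), ASB8 (-1.49 to 6.22), SUPT5H (-0.19 to 1.96), NEAT1 (-0.15 to 0.23) and MT-CYB (-0.096 to 0.069), the lowest value of the last 4 without flavopiridol replicate 1; MT-CYB was also at -0.00066 and -0.0054 without DMSO replicates 1.1 and 2.1. GSTM1 did not pass in DESeq2 or with the replicate block (adjusted p = 0.435 and 0.0749). The cause of these shifts was not tested, apart from thinning, which leaves fewer counts. At this depth 1 count is 1.26 CPM or more in every flavopiridol library.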
